A study of Mus musculus with 12 samples.

Results

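Of the 17202 genes of the table, 10 that lie off chromosome 5 are described here in the cerebral cortex of mice with and without a deletion on chromosome 5. They are Zfp180, Zfp991, Gm14295, Gm14403, Gm14419, Ighg2c, Gm5784, Gm45351, Dmgdh and Lemd1. They were chosen by name from earlier results of these data, because their levels separated deletion carriers from wild-type mice. The differences between genotypes therefore restate how they were chosen. They are given without a p value, and the counts of called genes among the 10 are no evidence about them. Co-treated and vehicle mice were compared over both genotypes, a contrast that equal groups keep uncorrelated with either genotype contrast, and this was tested.

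RNA was sequenced from the cortex of 12 mice, 3 in each of 4 groups. CD mice carry a heterozygous deletion from Gtf2i to Fkbp6 on chromosome 5, a model of Williams-Beuren syndrome, and WT mice are wild-type. VEH-WT and VEH-CD mice received vehicle (the labels call them untreated), and VERCUR-WT and VERCUR-CD mice received curcumin at 60 mg/kg/day with verapamil, a calcium channel blocker, at 10 mg/kg/day. The labels give treatment for 1 month from 8 weeks of age, an age of 16 weeks at the end and the strain as C57Bl6 for all 12 mice. The study's methods give a lower verapamil dose and an earlier end. They also state that the mice were males, that the line was crossed with mice carrying a Thy1-YFP transgene, which labels pyramidal neurons, and that the background was mostly, not wholly, C57BL/6J. Whether CD and WT mice carried the same alleles at the loci described here was not tested, and an allele that travelled with the deletion cannot be told apart from the deletion itself.

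Zinc finger proteins of the KRAB class form large families encoded in gene clusters. They bind DNA through arrays of C2H2 fingers and recruit the corepressor Trim28 and the histone methyltransferase Setdb1 through the KRAB box, mainly to silence transposable elements, and their clusters differ widely between mouse strains in gene copies. Ighg2c encodes the constant region of the IgG2c heavy chain, which C57BL/6 mice carry where strains such as BALB/c have Ighg2a, and is known from class-switched B cells rather than from brain. Dmgdh is the mitochondrial enzyme that converts dimethylglycine to sarcosine in choline breakdown and is known mainly from liver and kidney. Lemd1 belongs to the LEM-domain family, whose best known members sit at the inner nuclear membrane. Gm5784 is a noncoding RNA of unknown role, and Gm45351 is called a lincRNA in the deposited table and an unprocessed pseudogene in the GENCODE M21 annotation.

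The 10 genes lie on 6 chromosomes of GRCm38 (GENCODE M21 annotation). Gm14295 (chromosome 2, 176798612 to 176811223), Gm14419 (177000956 to 177012787) and Gm14403 (177498215 to 177509763) belong to a single zinc finger cluster, all on the plus strand. Zfp991 (chromosome 4, 147132038 to 147180579) lies in another. Zfp180 (24081924 to 24107713, plus strand) and Gm45351 (9868880 to 9876966, minus strand) are far apart on chromosome 7. Gm5784 (19387809 to 19433081, plus strand) and Ighg2c (113285325 to 113288932, minus strand) are likewise far apart on chromosome 12. Dmgdh is on chromosome 13 (93674433 to 93752833) and Lemd1 on chromosome 1 (132191431 to 132259227), both on the plus strand. A search of the longest coding sequence for the C2H2 pattern found 25 fingers in Gm14295, 17 in Gm14419, 12 in Zfp180, 11 in Zfp991 and 9 in Gm14403.

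Several of these genes have near copies, which bears on every count below, because the sources used here do not say how reads that fit more than 1 gene were counted. The share of 100-base windows of a gene's annotated transcripts that also occurs in the transcripts of another gene was 86.4% in Gm14419, 77.1% in Gm45351, 70.3% in Zfp991, 52.8% in Gm14295 and 32.4% in Lemd1. It was 6.53% in Gm5784, 4.95% in Gm14403 and 3.59% in Dmgdh. No window of Zfp180 or Ighg2c occurred elsewhere. The windows of Gm14295 and Gm14419 overlap each other most, 44.5% of those of Gm14295 and 55.9% of those of Gm14419, so the values of this pair are not separate measurements.

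**Figure D1:**
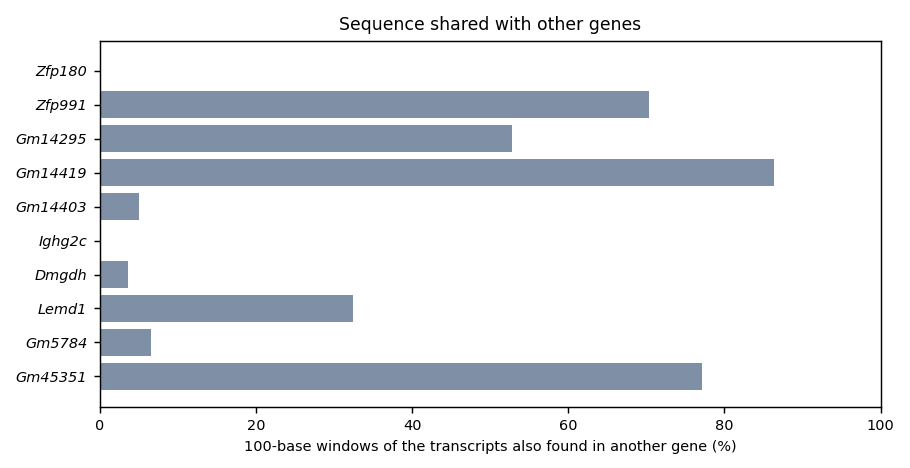
Share of the 100-base windows of each gene's annotated transcripts (x axis, percent) that also occurs in the transcripts of another gene, with the 10 genes on the y axis. Gm14419 has the longest bar at 86.4%, while Zfp180 and Ighg2c have none.

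The likeness is plain in the exon that encodes the start of the KRAB box. A 100-base coding window is identical in Gm14295 (chr2:176807362-176807461) and Gm14419 (chr2:177009681-177009780), and the nearest window of Gm14403 (chr2:177506909-177507008) differs at 2 of 100 bases, given in capitals (plus strand, GRCm38, GENCODE M21 transcripts):
Gm14295: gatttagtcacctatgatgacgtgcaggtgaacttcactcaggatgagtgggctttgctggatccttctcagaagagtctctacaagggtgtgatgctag
Gm14419: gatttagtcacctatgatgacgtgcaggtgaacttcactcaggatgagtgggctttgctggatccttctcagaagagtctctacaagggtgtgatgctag
Gm14403: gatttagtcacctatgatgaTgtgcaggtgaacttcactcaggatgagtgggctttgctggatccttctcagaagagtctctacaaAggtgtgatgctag

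Zfp991 shares such windows with Znf41-ps, Zfp992 and Zfp993 of its own cluster. In the window shown, Zfp991 (chr4:147176747-147176846) and Zfp992 (chr4:146464404-146464503) have the same 100 bases, again in the KRAB box (plus strand, GRCm38):
Zfp991: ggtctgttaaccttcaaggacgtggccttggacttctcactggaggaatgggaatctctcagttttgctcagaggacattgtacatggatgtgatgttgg
Zfp992: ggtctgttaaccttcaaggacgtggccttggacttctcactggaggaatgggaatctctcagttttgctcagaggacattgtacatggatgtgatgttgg

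Ighg2c has no window in common with another gene, but the gap to Ighg2b, a neighbouring IgG heavy chain gene, can be as small as 1 base. The closest pair of windows, Ighg2c at chr12:113287965-113288064 and Ighg2b at chr12:113306965-113307064, is printed on the minus strand (GRCm38), with the base that differs in capitals. Ighg2b was not analysed here.
Ighg2c: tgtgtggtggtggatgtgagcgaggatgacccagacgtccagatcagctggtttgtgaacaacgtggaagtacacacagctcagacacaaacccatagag
Ighg2b: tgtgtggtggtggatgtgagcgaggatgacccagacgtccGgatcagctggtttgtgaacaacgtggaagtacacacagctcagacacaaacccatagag

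The values are normalized counts, the reads counted on a gene divided by 1 factor per mouse, with 40290000 to 56480000 reads counted per mouse. Markers of cortical neurons were abundant in every mouse, with Slc17a7 between 92108.5 and 106911.4 normalized counts. Of the neuron, astrocyte, oligodendrocyte and microglia markers listed, 0 were called in either genotype contrast, where 0.257% and 0.146% of all genes tested were. The 5 inhibitory neuron markers had a median log2 difference of -0.20 between VEH-CD and VEH-WT mice, where that of all genes tested was 0.00. Of these, 2 of 5 had an unadjusted p under 0.05 (Gad1 and Gad2), where 11.8% of all genes tested did. The sum of all 5 was 35773 to 39090 against 40083 to 44466 normalized counts. With co-treatment the median was -0.06 and 0 of 5 passed that level, where 4.1% of all genes tested did. Of these lists, the summed oligodendrocyte markers varied most between mice, from 64065 to 187748, and the part of these markers in the results was not tested. The 19 genes of the deleted region were measured at a median of 0.468 to 0.53 of the VEH-WT mean in each of the 6 CD mice and at 0.959 to 1.04 in each of the 6 WT mice, so the labels of genotype hold in all 12. Differences between groups were estimated with limma on log2(normalized count + 1), a scale that understates the differences of low genes. A gene was called where its p value, after Benjamini-Hochberg adjustment over all 17111 genes tested, was under 0.05 and the level was over 25% higher or lower. All 10 genes had the mean of at least 10 normalized counts needed to be tested, Gm45351 and Gm5784 only through the WT mice.

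Per kb of exon, the mean level in VEH-WT mice (n = 3) was highest in Zfp180 at 757 normalized counts per kb, followed by Gm14295 at 309 and Ighg2c at 200. Gm14403 at 118 and Gm14419 at 101 came next, with ranges of 115 to 125 and 93.4 to 115 that meet. Lemd1 had 75.1 and Zfp991 50.5, and their ranges did not overlap. The 3 lowest levels per kb were those of Gm5784 at 16.0 (10.0 to 21), Gm45351 at 11.3 (7.93 to 15) and Dmgdh at 4.17 (2.55 to 5.58), of which the first and second overlapped.

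In each of the 10 genes, the values of the 6 CD mice and the 6 WT mice did not overlap, as the choice of the genes implies. Over all genes tested, 1.05% separated the 6 CD from the 6 WT mice in this way. Zfp180, Zfp991, Dmgdh and Lemd1 were higher in CD mice, and Gm14295, Gm14419, Gm14403, Ighg2c, Gm5784 and Gm45351 were lower. In VEH-CD against VEH-WT mice, 9 of the 10 genes were called, with Gm14419 the exception, where 0.257% of all genes tested were. With co-treatment 7 of the 10 were called (all but Zfp991, Gm14403 and Lemd1), where 0.146% of all genes tested were. Nothing can be read from these shares, since the same contrasts chose the genes. Off chromosome 5, only 7 of 16019 genes tested (0.0437%) were called in the same direction in both treatments under the settings reported here, and these were Zfp180, Gm14295, Ighg2c, Gm5784, Gm45351 and Dmgdh together with Git1, which is not among the 10.

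**Figure D2:**
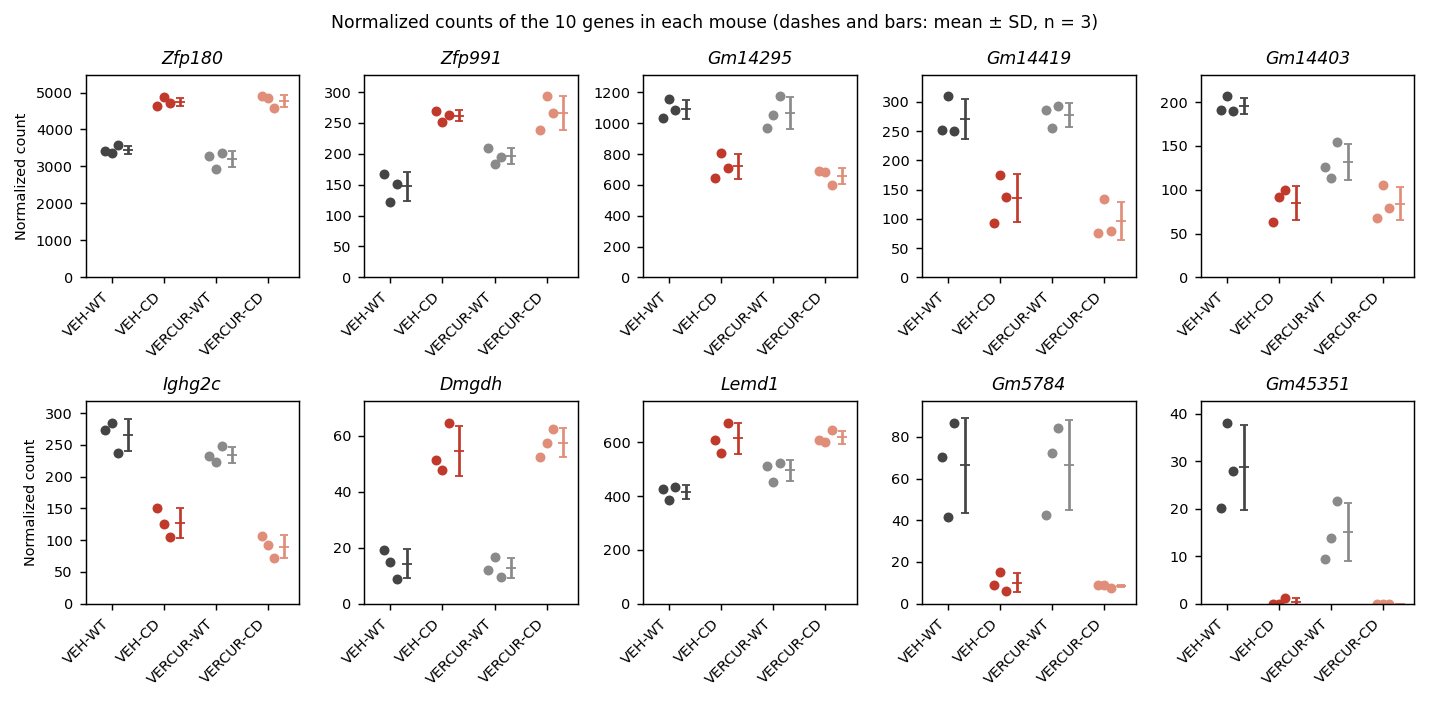
Normalized counts (y axis of each panel, from 0) of the 10 genes in each mouse, by group (x axis), with points for mice and dashes with bars for the mean ± SD (n = 3). In each panel the 6 CD mice lie on the same side of the 6 WT mice, from Zfp180, at 4593 or more in CD and 3576 or less in WT mice, to Gm45351, at 1.2 or less in CD and 9.5 or more in WT mice.

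Zfp180 was the most abundant of the 5 zinc finger genes. It was measured at 3408.5, 3373 and 3576 normalized counts in VEH-WT mice, 4632, 4865 and 4721 in VEH-CD mice, 3274, 2943 and 3369 in VERCUR-WT mice, and 4898, 4848 and 4593 in VERCUR-CD mice. Every CD mouse was thus above every WT mouse. The mean was 4739 ± 118 in VEH-CD against 3452 ± 108 in VEH-WT mice (SD, n = 3), a log2 difference of 0.46 (SE 0.06), and the difference with co-treatment was 0.58 (SE 0.06). These values rest on 9842 to 15778 reads per group, with no shared 100-base window.

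Zfp991 had 168, 122 and 151 normalized counts in VEH-WT mice and 270, 252 and 264 in VEH-CD mice. With co-treatment it had 210, 183 and 195 in WT and 238, 293 and 267 in CD mice. Its log2 difference was 0.84 with vehicle and 0.43 with co-treatment (SE 0.13 each). The VERCUR-WT mice lay between the VEH-WT mice and all 6 CD mice. Of the genes with the same windows, Znf41-ps had log2 differences of 0.28 and 0.36, with CD mice at 162 to 254 and WT mice at 122 to 210 normalized counts, which overlap. Zfp992 was at or below 89.9 normalized counts in every mouse, with log2 differences of 0.50 and 0.95, in the direction of Zfp991. Zfp993 was at or below 41.4, with -0.18 and 0.86. How reads were divided between Zfp991 and these copies was not tested.

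The 3 members of the chromosome 2 cluster were all lower in CD mice. Gm14295 had 1031, 1156 and 1086 normalized counts in VEH-WT mice, 647, 804 and 709 in VEH-CD, 966, 1054 and 1175 in VERCUR-WT, and 689, 685 and 599.6 in VERCUR-CD mice. Its fold was 0.658 with vehicle and 0.619 with co-treatment. Gm14419 had 252, 309 and 250.3 in VEH-WT mice, 93.7, 175 and 138 in VEH-CD, 286, 255 and 292 in VERCUR-WT, and 75.9, 134 and 78.9 in VERCUR-CD mice. Relative to the mean, its CD mice were spread more widely than those of the other 4 zinc finger genes, at 135 ± 40.6 in VEH-CD and 96.3 ± 32.7 in VERCUR-CD mice (SD, n = 3), and its fold was 0.489 and 0.338. Gm14403 had 191, 207 and 190.3 in VEH-WT mice, 62.8, 91.8 and 99.4 in VEH-CD, 126, 114 and 154 in VERCUR-WT, and 68.1, 105 and 78.9 in VERCUR-CD mice. Its fold was 0.428 with vehicle and 0.637 with co-treatment, and the 3 VERCUR-WT mice were below the 3 VEH-WT mice.

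Most other genes that share windows with these 3 did not differ by genotype at the same level. Of the 18 tested genes outside the 10 that share a window with Gm14295, only Gm14412 had an unadjusted p under 0.05 in the same direction in both genotype contrasts (limma), and its share of the windows was 0.755%. Gm6710, which holds 18.5% of the windows of Gm14295 and 19.3% of those of Gm14419, had log2 differences of 0.25 and 0.18. Gm14410 had 0.02 and 0.00, and Gm4631 -0.07 and -0.02. Gm14434, which holds 13.8% of the windows of Gm14295, was lower in CD mice on average, with log2 differences of -2.03 and -0.47. Its values were widely spread and overlapped, at 2.4 to 374.4 normalized counts in CD and 180 to 536 in WT mice. Gm2004, which holds 63.5% of the windows of Gm14419, was at 70.4 normalized counts or less in every mouse and had log2 differences of -0.67 and 0.93. With this much shared sequence, how the reads were divided between Gm14419 and Gm2004 was not tested.

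Around these 3 genes, lower levels in CD mice were found over a stretch of the cluster. In genomic order from Gm14295 to Gm14322, 12 genes were tested, a span chosen after their values were seen. Of these, 8 had an unadjusted p under 0.05 in both genotype contrasts, all lower in CD mice: the 3 members, Gm14296, Gm14412, Gm14418, Zfp970 and Gm14322. These are not 8 separate measurements, since 72.8% of the windows of Gm14322 occur in Gm14418 and 51.7% of those of Gm14296 occur in other genes. Chief among the latter is 2210418O10Rik, before Gm14295 in the cluster, with 39.9% of the windows of Gm14296. Its log2 differences were of the opposite sign, 1.10 and 2.12, without an unadjusted p under 0.05 in both contrasts (limma). How reads were divided between Gm14296 and 2210418O10Rik was not tested. Zfp970, another C2H2 gene, had 349, 394 and 395 normalized counts in VEH-WT mice, 181, 260.5 and 194 in VEH-CD, 336, 310.3 and 361 in VERCUR-WT, and 195, 250.9 and 168 in VERCUR-CD mice, with no overlap of the genotypes. Its log2 difference was -0.85 with vehicle (SE 0.16, adjusted p = 0.0528, limma) and -0.73 with co-treatment (SE 0.16, adjusted p = 0.211), so it did not pass the adjusted threshold. The other 4 of the 12 included Gm14410, in the middle of the stretch, at 455 to 550.1 in CD and 419 to 517 in WT mice. Gm14305, the tested gene before Gm14295, had -0.12 and 0.10, and Gm14325, the next after Gm14322, had 0.08 and 0.18. Beyond these edges, Gm14327 (-0.41 and -0.58) and Gm14288 (-0.40 and -0.59) had differences as large as those of Gm14322 (-0.45 and -0.52), at an unadjusted p under 0.05 with co-treatment alone.

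**Figure D3:**
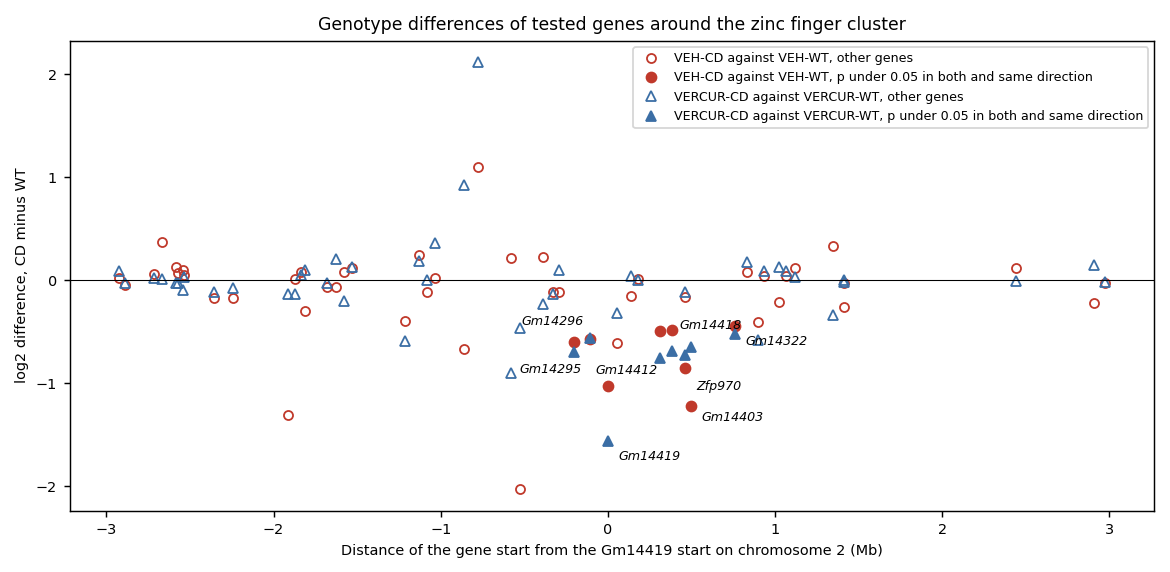
Log2 difference of CD minus WT mice (y axis) of each tested gene within 3 Mb of the start of Gm14419 on chromosome 2, by the distance of its start (x axis, Mb), with circles for vehicle and triangles for co-treated mice. Filled symbols mark the 8 genes with an unadjusted p under 0.05 in both contrasts and the same direction, which lie between -0.20 and 0.76 Mb, with Gm14410 at 0.18 Mb among them at 0.02 and 0.00.

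Similar sequence just before the start was shared by cluster genes that were lower in CD mice and by others whose genotypes overlapped. The 250 bases before the RefSeq start (GRCm38.p6) are printed for Gm14295 (chr2:176798350-176798599, plus strand), for Zfp970 (chr2:177464492-177464741, plus strand), for Zfp966 (chr2:175931101-175931350, minus strand), which did not differ by genotype beyond its spread, and for Gm14403 (chr2:177497976-177498225, plus strand). Capitals mark bases that differ from Gm14295 or have no partner there in a global alignment:
Gm14295: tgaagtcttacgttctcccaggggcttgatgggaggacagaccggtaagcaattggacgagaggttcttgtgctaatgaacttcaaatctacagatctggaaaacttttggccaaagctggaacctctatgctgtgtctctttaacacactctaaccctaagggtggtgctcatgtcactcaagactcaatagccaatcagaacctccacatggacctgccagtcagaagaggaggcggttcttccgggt
Zfp970: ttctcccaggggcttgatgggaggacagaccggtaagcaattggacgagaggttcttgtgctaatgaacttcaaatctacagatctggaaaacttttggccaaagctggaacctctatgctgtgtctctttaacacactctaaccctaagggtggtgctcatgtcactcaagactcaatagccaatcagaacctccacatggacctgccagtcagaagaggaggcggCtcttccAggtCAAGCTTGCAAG
Zfp966: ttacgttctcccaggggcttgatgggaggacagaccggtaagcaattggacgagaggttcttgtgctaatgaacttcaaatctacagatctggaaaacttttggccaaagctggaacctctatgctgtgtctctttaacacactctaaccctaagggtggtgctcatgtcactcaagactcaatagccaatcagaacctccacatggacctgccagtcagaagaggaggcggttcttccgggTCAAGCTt
Gm14403: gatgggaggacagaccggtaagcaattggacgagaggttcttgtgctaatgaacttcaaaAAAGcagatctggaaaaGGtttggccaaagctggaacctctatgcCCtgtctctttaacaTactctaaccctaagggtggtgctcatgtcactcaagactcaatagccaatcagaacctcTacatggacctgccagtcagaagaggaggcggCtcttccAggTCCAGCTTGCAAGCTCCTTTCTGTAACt

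Zfp966 matched Gm14295 at 243 of 250 bases with 0 mismatches and 14 gaps. Zfp970 matched it at 236 with 2 mismatches and 24 gaps, and Gm14403 at 211 with 12 mismatches and 54 gaps. The log2 differences of Zfp966 were -0.11 with vehicle and 0.00 with co-treatment, and those of Zfp970 were -0.85 and -0.73. Of 16 tested genes of this region with at least 200 identities to Gm14295, 3 were members or had an unadjusted p under 0.05 in both contrasts in the same direction (limma). Of the 10 with fewer identities 0 were or did, and 1.01% of all genes tested had such p values. Among the rest of the 16, 2210418O10Rik, with 232 identities, had 1.10 and 2.12. These are sequences of the reference build, and the part of upstream sequence was not tested. RefSeq promoter entries were found for 7 of the 10 genes, all but Zfp991, Gm14419 and Ighg2c.

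Ighg2c was lower in CD mice. It had 273, 285 and 237 normalized counts in VEH-WT mice, 151, 125 and 104 in VEH-CD, 233, 223 and 248 in VERCUR-WT, and 106, 91.7 and 71.2 in VERCUR-CD mice. The highest CD mouse, at 151, was well below the lowest WT mouse, at 223. The mean was 127 ± 23.3 in VEH-CD against 265 ± 25 in VEH-WT mice (SD, n = 3), a log2 difference of -1.07 (SE 0.16), and with co-treatment the difference was -1.39 (SE 0.16).

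No other immunoglobulin gene of the table passed the adjusted threshold. Of the 5 tested (Ighm, Ighd, Igha, Igkc and Jchain), 0 were called in either genotype contrast, and only Ighm had an unadjusted p under 0.05. Igha (1.16 and 0.94, SE 0.65 each) and Ighd (0.45 and 0.14, SE 0.38 each) were higher in CD mice on average. Igkc was lower in both contrasts, and Jchain changed sign. Ighm, the IgM heavy chain gene on the same chromosome, had 2049, 2124.5 and 2337 normalized counts in VEH-WT mice, 1745, 1242 and 1236 in VEH-CD, 1490, 2318 and 2336 in VERCUR-WT, and 1283, 1101 and 812 in VERCUR-CD mice. The lowest WT mouse, VERCUR-WT 1, overlapped with the CD mice. The log2 difference of Ighm was -0.64 with vehicle (SE 0.20, adjusted p = 0.233, limma) and -0.94 with co-treatment (SE 0.20, adjusted p = 0.168).

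B and plasma cell markers other than Ighm were low or not in the table. Of the 12 in the list, 6 were in the table, and beside Ighm these were low in all 12 mice: Cd79a at 8.66 to 26.4, Cd79b at 2.37 to 26.3, the kappa light chain gene Igkc at 7.19 to 38.9, Jchain at 7.19 to 23.0 and Sdc1 at 54.9 to 76.7 normalized counts. The sum over the 6 was 2159 to 2461 in VEH-WT, 1369 to 1922 in VEH-CD, 1614 to 2457 in VERCUR-WT and 932 to 1409 in VERCUR-CD mice, most of it Ighm. Without Ighm, 0 of the other 5 had an unadjusted p under 0.05 in either genotype contrast. Of these 5, Cd79b was higher in CD mice on average in both (log2 differences 0.77 and 0.82, SE 0.55 each). Igkc was lower in both (-0.28 and -0.30, SE 0.49 each), and Cd79a, Jchain and Sdc1 were higher with vehicle and lower with co-treatment. The median over the 6 was 0.28 with vehicle and -0.21 with co-treatment. In bulk samples, fewer cells of a type and less RNA per cell cannot be told apart.

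Dmgdh was low in WT mice and several times higher in CD mice. It had 19.1, 15.01 and 8.69 normalized counts in VEH-WT mice, 51.4, 47.7 and 64.7 in VEH-CD, 11.9, 16.7 and 9.49 in VERCUR-WT, and 52.4, 57.6 and 62.6 in VERCUR-CD mice. The lowest CD mouse, at 47.7, stood well above the highest WT mouse, at 19.1. The fold was 3.78 with vehicle and 4.37 with co-treatment, from 39 to 40 reads in each WT group and 153 to 189 in each CD group. AW495222, an antisense gene inside Dmgdh with which it shares 3.59% of its windows, had 77.7 to 121 normalized counts in CD and 100.03 to 133 in WT mice, and its log2 differences were -0.23 and 0.01.

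No other enzyme of choline, glycine and folate metabolism passed the test. Of the 23 listed 20 were tested, and 0 were called in either genotype contrast. With vehicle, the smallest p was that of Mat2a, which makes S-adenosylmethionine (log2 difference -0.25, SE 0.07, adjusted p = 0.218, limma). The median log2 difference over the 20 was -0.03 with vehicle and 0.00 with co-treatment, and that over all genes tested was 0.00 in each. Bhmt, Bhmt2 and Gnmt were not analysed here. Of the hepatocyte markers only Ttr, also a choroid plexus gene, was in the table, at 5.77 to 76.7 normalized counts.

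Dmgdh and Bhmt2, a gene of the enzyme list above, are read in opposite directions from starts that lie close together. Between the starts annotated in GENCODE M21 lie 130 bases (chr13:93674303-93674432, plus strand, sequence from RefSeq, GRCm38.p6). They are shown with CG pairs in capitals because they are all the sequence that the pair of starts has between them:
Dmgdh: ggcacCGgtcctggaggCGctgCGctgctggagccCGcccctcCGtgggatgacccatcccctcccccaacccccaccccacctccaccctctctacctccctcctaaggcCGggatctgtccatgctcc

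The stretch holds 6 CG pairs, 4.62 per 100 bases, where the median over 32851 RefSeq promoter entries was 2.33, and 36.3% of the entries were at least as dense. Those entries begin 250 bases before each start, so they differ from this stretch in length and placement. No measurement of these data bears on that sequence directly.

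Lemd1 was higher in CD mice by a smaller amount. It had 426, 384 and 435 normalized counts in VEH-WT mice, 610.1, 559 and 673 in VEH-CD, 510.4, 451 and 524 in VERCUR-WT, and 607, 603 and 646 in VERCUR-CD mice. The VERCUR-WT mice lay between the VEH-WT mice and the CD mice, as in Zfp991. The log2 difference was 0.56 with vehicle and 0.32 with co-treatment (SE 0.09 each). Of its windows, 24.1% occur in AC124108.1, an overlapping gene that was not analysed here. Of 10 tested genes for LEM-domain and lamina proteins, 0 were called in either genotype contrast, and the medians of their log2 differences were -0.04 and 0.05.

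Gm5784 was the member with the largest difference among those that CD mice still expressed above 3 reads per group. It had 70.6, 41.6 and 86.9 normalized counts in VEH-WT mice, 9.14, 15.01 and 5.99 in VEH-CD, 42.7, 72.2 and 84.5 in VERCUR-WT, and 8.72, 8.99 and 7.70 in VERCUR-CD mice. The WT mice varied among themselves by a coefficient of variation of 34.6% with vehicle and 32.3% with co-treatment, yet all 6 lay above all 6 CD mice. The fold was 0.162 with vehicle and 0.146 with co-treatment.

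A second noncoding gene next to Gm5784 had the same direction. AC124739.2 (chromosome 12, 19434529 to 19435161, plus strand), which begins just past the annotated end of Gm5784 on the same strand, had 25.8, 16.2 and 15.6 normalized counts in VEH-WT mice, 1.14, 5.30 and 4.79 in VEH-CD mice, 21.4, 29.6 and 29.3 in VERCUR-WT, and 2.62, 4.5 and 6.74 in VERCUR-CD mice. The genotypes did not overlap. AC124739.2 reached the mean needed to be tested only through the WT mice, as no CD mouse was above 6.74, so its being tested already favoured a difference in this direction. Its log2 difference was -2.20 with vehicle (SE 0.44, adjusted p = 0.0706, limma) and -2.36 with co-treatment (SE 0.44, adjusted p = 0.0761). Whether the reads of both come from a single longer RNA was not tested.

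Gm45351 was at or near 0 in every CD mouse. It had 20.2, 38.1 and 27.8 normalized counts in VEH-WT and 9.50, 13.9 and 21.6 in VERCUR-WT mice, 83 and 48 reads in all. In the 6 CD mice a single read was counted, in VEH-CD 3. The ratio of VEH-WT to VEH-CD in pooled reads, allowing for the factor per mouse, was 81.1. Its exact 95% interval of 14.2 to 3240 covers counting error only. Against a floor of 3 reads over the group, VERCUR-WT mice were at least 16.4-fold higher than VERCUR-CD mice in mean normalized counts. The exact lower 95% limit of the ratio of pooled reads, again for counting error, was 13.4. Since 77.1% of its windows occur in other genes, chiefly Gm20482 and 2810047C21Rik1, which were not analysed here, reads of these genes may be counted on it.

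The genes next to the 10 were then examined. Of the 290 other genes tested within 2 Mb of a member, 0 were called in either genotype contrast, which the choice of the members partly fixes, since a called neighbour could itself have been chosen. At an unadjusted p under 0.05, 39 passed with vehicle (13.4%, where 11.8% of all genes tested did) and 26 with co-treatment (8.97%, where 4.1% did), and 11 (3.79%) passed in both in the same direction, where 1.01% of all genes tested did. The 2 contrasts share no mouse, but both use the same estimate of each gene's spread, so passing in both does not give independent results. Several of the chromosome 2 neighbours also share sequence with each other or with the members. By locus, these 11 were 5 of 38 neighbours in the chromosome 2 cluster, 3 of 20 by Gm5784 (AC124739.2, AC164424.1 and Hpcal1), 2 of 48 by Ighg2c (Ighm and Eif5) and 1 of 54 by Lemd1 (Tmcc2). Of these, AC124739.2 reached the mean needed to be tested only through the WT mice.

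No neighbour of the other 4 genes passed in both: 0 of 51 by Zfp180, 0 of 43 by Zfp991, 0 of 35 by Dmgdh and 0 of 1 by Gm45351. Within 0.5 Mb the counts were 8 of 85 over all members and within 5 Mb 14 of 742. AC164424.1, at 4.81 to 17.5 normalized counts in CD and 21.3 to 28.9 in WT mice, and Hpcal1, a calcium sensor gene, at 911 to 993 and 1015 to 1211, kept the genotypes apart. Eif5, a translation initiation factor gene, and Tmcc2 had log2 differences under 0.25 in size, and their genotypes overlapped.

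**Figure D4:**
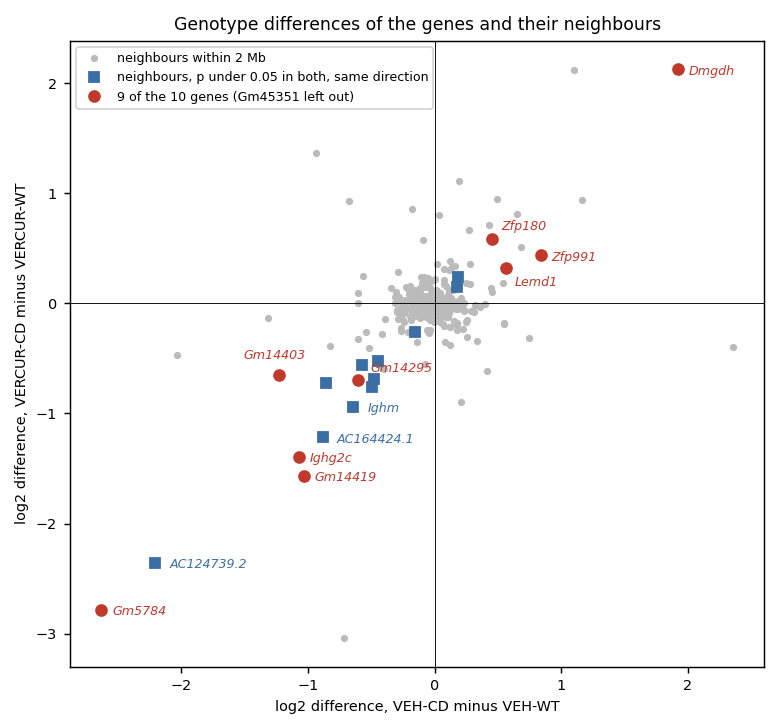
Log2 difference of VEH-CD minus VEH-WT (x axis) against that of VERCUR-CD minus VERCUR-WT (y axis) for 9 of the 10 genes (red, Gm45351 left out because CD mice were at 0 or 1 read), the 11 neighbours with an unadjusted p under 0.05 in both (blue squares) and the other neighbours within 2 Mb (grey). Most grey points lie near 0, and AC124739.2, at -2.20 and -2.36, is the blue square nearest to Gm5784.

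Zinc finger genes elsewhere were called with vehicle at about the share of all genes. Of 379 tested genes named Zfp or Zscan outside the 10, 1 was called with vehicle, where 0.257% of all genes tested were, and 0 with co-treatment, where 0.146% were. The called gene, Zfp189, was lower in VEH-CD mice (log2 difference -0.97, SE 0.16, adjusted p = 0.0257, limma), while with co-treatment its log2 difference was 0.47 (SE 0.16, adjusted p = 1.00), of the opposite sign. By co-treatment its log2 difference was 0.83 in CD mice and -0.61 in WT mice, with adjusted p of 0.77 and 0.867. Over the 379, the median log2 difference was -0.06 with vehicle and 0.03 with co-treatment. By chromosome, 0 of 26 on chromosome 2 and 0 of 92 on chromosome 7 were called in either contrast, and 1 of 18 on chromosome 4, where Zfp189 lies. Of the 14 genes listed for the KRAB corepressor and heterochromatin, which include Trim28 and Setdb1, 0 were called and 0 had an unadjusted p under 0.05 in either genotype contrast. The smallest p in that list was that of Atf7ip, a partner of Setdb1, with vehicle (-0.17, SE 0.09, adjusted p = 0.469, limma) and of Uhrf1, a DNA methylation maintenance gene, with co-treatment (0.76, SE 0.49, adjusted p = 1.00).

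Co-treatment was then compared with vehicle. None of the 10 genes was called in CD mice, in WT mice or over both, by limma with Benjamini-Hochberg adjustment, and neither was any of the 17111 genes tested (0%). With voom weights on the recovered reads, 0 genes were called in each of these contrasts. Over both genotypes, 2.96% of all genes had an unadjusted p under 0.05, and among the 10 these were Ighg2c and Zfp991. Neither passed after adjustment. The choice of the genes may favour small estimates of spread, so the p values below may be too low and the intervals too narrow. Ighg2c had a log2 difference of -0.33 (95% interval -0.59 to -0.08, unadjusted p = 0.0132, adjusted p = 1.00, limma). Zfp991 had one of 0.22 (0.03 to 0.41, unadjusted p = 0.0293, adjusted p = 1.00, limma). The interval for Zfp180 was -0.14 to 0.04, and those of the low genes were far wider, with -0.46 to 0.41 for Dmgdh and -0.62 to 0.48 for Gm5784, so differences within these intervals could not be detected.

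Within each genotype, the same mice enter the comparison that chose the genes, and a gene chosen because VEH-WT mice lay far from VEH-CD mice can show a shift in VERCUR-WT mice for that reason. The differences within a genotype are therefore a description with no p value. At an unadjusted p under 0.05, 3.54% of all genes passed in CD mice and 5.22% in WT mice.

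Within CD mice, the values of co-treated and vehicle mice overlapped in all 10 genes, where 8.34% of all genes tested did not overlap. Ighg2c had a log2 difference of -0.50 (95% interval -0.85 to -0.14), Zfp180 of 0.01 (-0.12 to 0.14) and Gm14295 of -0.13 (-0.34 to 0.09). For Gm5784, near the limit for testing in CD mice, the interval was -0.92 to 0.64.

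Within WT mice, 4 of the 10 genes did not overlap between co-treated and vehicle mice, where 9.72% of all genes tested did not. Zfp991 had a log2 difference of 0.42 (0.15 to 0.70), Gm14403 of -0.58 (-1.01 to -0.15) and Lemd1 of 0.25 (0.05 to 0.45), each toward the level of the CD mice. Zfp180 had -0.11 (-0.24 to 0.02), away from the level of the CD mice. Zfp991, Gm14403 and Lemd1 are also the 3 that were not called between genotypes with co-treatment, a comparison that uses the same VERCUR-WT mice. Whether the genotype difference itself changed with co-treatment was not tested.

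**Figure D5:**
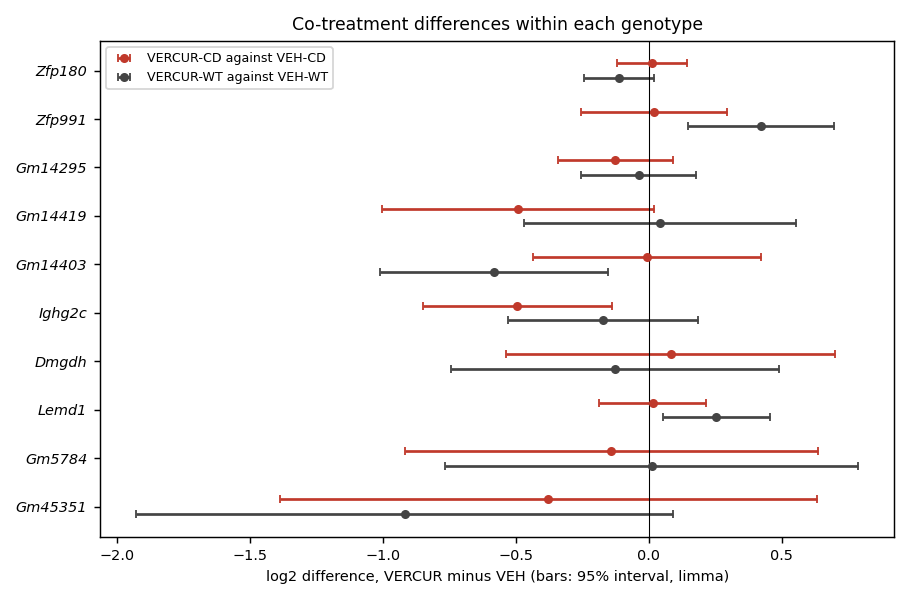
Log2 difference of co-treated minus vehicle mice (x axis) for the 10 genes (y axis), in CD mice (red) and WT mice (dark grey), with 95% intervals from limma. Most intervals include 0, those of Ighg2c in CD mice and of Zfp991, Gm14403 and Lemd1 in WT mice do not, and none of these passed the adjusted threshold.

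The genes most like each member over the 12 mice had the highest Pearson's r of the log2 values. For members lower in CD mice, these were often genes of the deleted region. The choice of the members by their split between genotypes largely fixes this. Only the highest positive r was ranked, so members higher in CD mice were not matched with genes that were lower in them. Gtf2ird1 and Clip2 were the nearest to Gm14295 (r = 0.96 and 0.96) and to Ighg2c (0.97 and 0.95). Limk1 was nearest to Gm45351 (0.98, then Bcl7b at 0.98) and to Gm5784 (0.96, then Gtf2i at 0.96). Trim50, which lies by the deletion on chromosome 5, was nearest to Dmgdh (0.97, then Hpf1 at 0.95) and second to Ppp1r21 for Zfp180 (0.94 against 0.95). For Gm14419 the nearest were Gm42884 (0.97), on chromosome 5, and its cluster neighbour Gm14322 (0.95). The nearest of Gm14403 were Ifrd1 (0.97) and Gm10635 (0.92), of Zfp991 Hpgds and Ddn (0.95 each), and of Lemd1 Tmem175 and B130046B21Rik (0.95 each).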

How the data were processed

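Reads in pairs were aligned by the authors with STAR 2.5.3a (genome build GRCm38), and they deposited 1 table of normalized counts (reads per gene divided by a factor per mouse, another unit than raw counts); the counting program and annotation are not given in the sources used here. Low values were multiples of the value of 1 read (tolerance 0.1) in 100% of cases, which gave the reads. The other 2 deposited tables, of expression relative to WT, were not used. The log2(normalized count + 1) values were fitted with limma 3.58.1 in R 4.3.3 over the 17111 genes with a mean of at least 10, with 4 group means over all 12 mice and an intensity trend, as tested on simulated data. p values were two-sided. Nothing says that mice of a group came from separate litters. Positions are from GENCODE M21 (17193 of 17202 genes matched by ID) and upstream sequences from RefSeq.

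The members, the lists and the neighbour distance of 2 Mb were chosen with earlier results of these data known. Named genes are the 10 members, list genes called in a genotype contrast or else of smallest p, neighbours of p under 0.05 in both, the 2 genes most like each member, and genes off chromosome 5 called in both. Copies of the members and genes at the edges of the chromosome 2 stretch were named after their values were seen. Alternatives were pseudocounts of 0.1 and 5, no filter, a mean of at least 50, quantile normalization, no trend, only the groups compared, the replicate number as a block, neighbours within 0.5 and 5 Mb, and leaving out each mouse; limma's voom weights on the recovered reads were added after seeing the data.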

Additional observations from a re-analysis of the deposited data

How the results depend on the processing

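In VEH-CD against VEH-WT mice, 9 members were called, and leaving out each mouse in turn gave 4 to 10: leaving out VEH-CD 3, VEH-WT 2 or VEH-CD 1 gave 4, and leaving out VEH-WT 3 gave 5. In VERCUR-CD against VERCUR-WT mice, 7 were called, 5 to 7 with a mouse left out, and 4 with a mean of at least 50, where 7 members were tested. Neighbours called with vehicle were 0 to 2 with a mouse left out and 1 (Homer1) with the replicate block. With co-treatment they were 0 to 1 with a mouse left out, and 1 (AC124739.2) with a pseudocount of 5 or with voom weights, the latter added after seeing the data. The cause was not tested. Members called by co-treatment stayed at 0 in every alternative run. No genotype difference of a member changed sign in 207 refits per contrast, counted over the 10 genes together. The genotypes did not overlap in any of the 10, so this outcome was all but fixed and is no support. Over both genotypes, the co-treatment difference of Gm5784 (-0.07 on the log2 scale) ranged from -0.22 to 0.089 with a mouse left out, turning positive without VEH-CD 2 (0.089), VERCUR-WT 1 (0.077) or VEH-WT 3 (0.046). That of Dmgdh (-0.02) ranged from -0.17 to 0.091, positive without VEH-WT 1 (0.091), VERCUR-WT 3 (0.064), VEH-CD 3 (0.040), VEH-WT 2 (0.010) or VERCUR-CD 1 (0.0092). Same-numbered mice of different groups had a median correlation of deviations of 0.02 (-0.35 to 0.27), where other pairs had -0.01 (-0.23 to 0.32). With so few mice, this cannot decide whether they shared a litter or batch. With the block the members called stayed at 9 and 7. The planned edgeR and DESeq2 fits on raw counts were not run, and the voom fit on recovered reads was the only count-based alternative. The depth of 39 reads per WT group in Dmgdh and 1 read over the CD mice in Gm45351 limits what could be seen in these genes.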
